A study of Mus musculus with 2 samples.

Results

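Heat shock chaperones are proteins that bind unfolded or partly folded chains and help them fold, travel or be degraded. Here they are the genes Hspa1a, Hspa1b, Hspa8, Hsp90aa1, Hsp90ab1, Hsph1, Hspb1, Dnajb1, Hspe1 and Hspd1, taken by symbol, 10 of the 32285 genes counted. They were followed in single-cell RNA sequencing of E14 mouse embryos in which the splicing factor gene Srsf2 was deleted with Myf5-Cre. The study compared SRSF2f/f/Myf5-Cre/tdT embryos with SRSF2f/w/Myf5-Cre/tdT embryos, which keep a wild-type Srsf2 allele beside the floxed one. Embryos of both genotypes carried Myf5-Cre, which is driven by the Myf5 promoter of the muscle lineage, and a Cre-dependent tdTomato reporter in the Rosa26 locus. Heads and viscera were removed, the trunks and limbs were digested with collagenase and dispase at 37 °C, and tdT-positive cells were sorted before droplet capture. Digestion of this kind is part of every value given here, for both libraries alike. There was 1 library per genotype, and the number of embryos pooled in each is not given in the sources used here. No difference below has a replicate check, so none was tested, and every interval is a 95% interval that covers counting error only.

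The labels of the libraries conflict. The library with 15268 barcodes is headed Het/tdT in the quality control panels of the study, and the one with 12498 barcodes MKO/tdT, while the titles of the deposited samples give the opposite genotypes. The targeted gene, Srsf2, was at 219 UMIs in 1000000 (217 to 221) in the library labelled Het/tdT and 153 (151 to 155) in the library labelled MKO/tdT, which goes with the panel headings. Skeletal muscle cells by their markers, the lineage in which Myf5 is active, were 14.5% of the kept cells in the first and 0.909% in the second. The panel headings are used throughout, and under the sample titles every ratio below would change its sign. After filters on UMIs, genes and mitochondrial share, 12523 cells with 151555303 UMIs were kept in Het/tdT and 10345 cells with 122938843 UMIs in MKO/tdT. The median depth was 10751 and 9480.0 UMIs per cell. The libraries shared 74 cell barcodes, 50 of them among the kept cells.

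Levels are given in CPM, the unique molecular identifiers (UMIs, each a captured molecule) of a gene divided by all UMIs of those cells and scaled to 1000000. Ratios are log2 of the MKO/tdT level over the Het/tdT level. Since each molecule gives its tag from its 3′ end, a level has no length term. Cells were placed in 11 classes by fixed limits on marker UMIs: skeletal muscle (SKM-like), mesenchymal (Mesen-like), chondrocyte (Chon-like), osteoblast (Osteo-like), neuron (Neu-like), Schwann cell (Sch-like), endothelial (Endo-like), pericyte (Peri-like), immune (Immu-like), epithelial (Epi-like) and erythroid (Ery-like) cells. These held 76.3% of the kept cells of Het/tdT and 75.7% of those of MKO/tdT. Of 4 or 5 genes per class that were left out of the limits, all were highest in their own class in 8 classes, and 4 of 5 in Mesen-like, Sch-like and Peri-like cells. There were 1820 SKM-like cells in Het/tdT but 94 in MKO/tdT.

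The chaperones fall into roles. HSP70 proteins hold short hydrophobic stretches of a client protein in a cycle driven by ATP. Hspa1a and Hspa1b encode the stress-inducible HSP70, and Hspa8 the constitutive one. Dnajb1 encodes an HSP40, a J-domain partner that starts the HSP70 cycle, and Hsph1 encodes HSP110, which exchanges its nucleotide. Hsp90aa1 and Hsp90ab1 encode the cytosolic HSP90 proteins, which finish the folding of kinases and receptors and are needed by muscle myosin. Hspb1 encodes HSP27, a small heat shock protein that holds unfolded clients and is abundant in muscle. Hspd1 and Hspe1 encode HSP60 and its lid HSP10, the folding chamber of the mitochondrial matrix. Under proteotoxic stress the factor HSF1 binds heat shock elements, runs of alternating GAA and TTC units, at many of these genes, and dissociation of tissue is known to start the same programme.

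The promoters of Hspa1a, Hspb1, Hspe1 and Hsph1 show which of these elements are present in the reference. Together with Hspa1b, the genes Hspa1a and Hspb1 had the highest ratios over all cells and in SKM-like cells. The promoters of Hspe1 and Hsph1 hold the longer runs of units. RefSeq promoter sequences of GRCm38.p6, 250 bases before to 50 after each start, were found for 7 of the 10 members (Hspa1a, Hspa1b, Hsph1, Hspb1, Dnajb1, Hspe1 and Hspd1). The others are Hspa8, Hsp90aa1 and Hsp90ab1. Capitals mark pairs of facing units, GAANNTTC or TTCNNGAA, each of which reads the same on both strands, and overlapping matches are joined. The first line is the Hspa1a promoter (chr17:34972107-34972406, minus strand), the second that of Hspb1 (chr5:135887669-135887968, plus strand), the third that of Hspe1 (chr1:55087898-55088197, plus strand) and the last that of Hsph1 (chr5:149636266-149636565, minus strand).
Hspa1a: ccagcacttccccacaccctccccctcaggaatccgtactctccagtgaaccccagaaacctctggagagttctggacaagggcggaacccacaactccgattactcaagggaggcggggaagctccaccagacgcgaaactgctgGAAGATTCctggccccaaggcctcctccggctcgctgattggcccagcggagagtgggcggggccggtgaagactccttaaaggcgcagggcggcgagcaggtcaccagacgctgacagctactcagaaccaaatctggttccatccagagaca
Hspb1: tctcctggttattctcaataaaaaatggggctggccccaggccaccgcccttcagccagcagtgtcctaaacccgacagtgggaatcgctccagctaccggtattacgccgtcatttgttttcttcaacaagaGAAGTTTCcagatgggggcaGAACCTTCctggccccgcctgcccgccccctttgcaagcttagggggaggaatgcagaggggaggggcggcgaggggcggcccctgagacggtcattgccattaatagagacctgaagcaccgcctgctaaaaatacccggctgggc
Hspe1: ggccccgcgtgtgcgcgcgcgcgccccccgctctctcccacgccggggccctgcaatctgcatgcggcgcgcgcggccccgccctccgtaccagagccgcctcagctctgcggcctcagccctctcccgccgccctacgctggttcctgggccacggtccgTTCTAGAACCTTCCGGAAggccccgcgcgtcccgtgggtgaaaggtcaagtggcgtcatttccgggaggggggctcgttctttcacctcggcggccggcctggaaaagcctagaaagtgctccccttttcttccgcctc
Hsph1: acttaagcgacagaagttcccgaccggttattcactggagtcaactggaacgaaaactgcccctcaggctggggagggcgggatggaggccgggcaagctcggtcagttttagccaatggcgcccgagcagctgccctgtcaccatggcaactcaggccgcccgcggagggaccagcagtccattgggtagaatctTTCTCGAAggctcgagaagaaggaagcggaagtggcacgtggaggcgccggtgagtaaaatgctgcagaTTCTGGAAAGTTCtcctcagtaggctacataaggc

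Hspa1b (chr17:34959189-34959488, minus strand) matched Hspa1a at 296 of 300 bases, and its only match is at the same place, 104 bases before the start. Hspb1 holds 2 separate pairs, 117 and 97 bases before its start. Hspe1 holds a single run of 3 overlapping pairs from 89 bases before its start. The annotated genes Hspe1 and Hspd1 lie head to head and overlap by 112 bases, and a window of Hspd1 (chr1:55087883-55088182, minus strand) reads the same run from the other strand, 144 bases before its start. Hsph1 holds a pair 54 bases before its start and a run of 2 overlapping pairs from 15 bases after it. Either pair was found in 7 of the 10 windows of these members, against 15.1% of all 32851 windows. The 7 windows belong to 6 of the 7 members, and no match was found in the windows of Dnajb1. The longer form of 3 alternating units was found in 4 of the 10 windows, those of Hspd1, Hspe1 and Hsph1, and in 0.603% of all windows. Hsph1 has 2 overlapping windows, starting at 149636266 and 149636287, that hold the same matches. Since Hspd1 and Hspe1 also share a run, and the windows of Hspa1a and Hspa1b are nearly identical, these counts of windows are not counts of separate sites. GAANNTTC alone is in 7.86% of all windows and TTCNNGAA in 8.52%. These are matches of letters, and binding of HSF1 was not measured.

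Over all kept cells, the inducible HSP70 genes were the members that differed most between the libraries. Hspa1a (ENSMUSG00000091971, chromosome 17, 34969190 to 34972156, minus strand) was at 70.4 (69.1 to 71.8) CPM in Het/tdT, against 134 (132 to 137) in MKO/tdT. Hspa1b (ENSMUSG00000090877, chromosome 17, 34956436 to 34959238, minus strand) was at 33.6 (32.7 to 34.5) and 63.9 (62.5 to 65.4). Both were higher in MKO/tdT, by 1.91-fold and 1.90-fold, and for neither did the intervals of the libraries meet. The ratio of their sum was 0.93 (0.90 to 0.96). None of the 91-base windows in the last 500 bases of either transcript occurs in a transcript of another gene, so their 3′ tags can be told apart, and Hspa1a gave 67.7% of the pair's UMIs of Het/tdT and 67.8% of MKO/tdT.

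The partners of HSP70 and the small heat shock protein were higher in MKO/tdT by less. Dnajb1 (ENSMUSG00000005483, chromosome 8, 83608193 to 83612653, plus strand) was at 117 CPM in Het/tdT and 149.8 in MKO/tdT, a ratio of 0.35 (0.32 to 0.38). Hsph1 (ENSMUSG00000029657, chromosome 5, 149614287 to 149636376, minus strand) was at 90.2 and 103, a ratio of 0.20 (0.16 to 0.23). Hspb1 (ENSMUSG00000004951, chromosome 5, 135887919 to 135889563, plus strand) was at 200.3 and 289.6, a ratio of 0.53 (0.51 to 0.55).

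The abundant chaperones of the cytosol were nearly level. Hsp90ab1 (ENSMUSG00000023944, chromosome 17, 45567775 to 45573271, minus strand), which alone gave 46.0% of all UMIs of the 10 members in Het/tdT and 45.5% in MKO/tdT, was at 4207 and 4215 CPM. Hsp90aa1 (ENSMUSG00000021270, chromosome 12, 110690605 to 110702728, minus strand) was at 1416 and 1417. For both HSP90 genes the ratio was 0.00. Hspa8 (ENSMUSG00000015656, chromosome 9, 40800984 to 40810087, plus strand) was at 1523 and 1666, a ratio of 0.13 (0.12 to 0.14). Of the 91-base windows in its last 500 bases, 79.8% also occur in transcripts annotated to 7 other genes, so its tags could have been lost or shared, equally in both libraries as far as the counting goes. For Hspe1 this share is 35.9%, for Hspb1 6.83%, and for the other members 0.

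The mitochondrial chaperones were the members with lower levels in MKO/tdT. Hspd1 (ENSMUSG00000025980, chromosome 1, 55077835 to 55088243, minus strand) was at 679 CPM in Het/tdT and 527 in MKO/tdT, a ratio of -0.36 (-0.38 to -0.35). Hspe1 (ENSMUSG00000073676, chromosome 1, 55088132 to 55091307, plus strand) was at 813 and 691, a ratio of -0.24 (-0.25 to -0.22). Within the cell classes, these directions held for Hspd1 in 3 of 11 and for Hspe1 in 4 of 11.

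All 10 members had at least 200 UMIs, the minimum for a gene to be ranked. Hspa1a and Hspa1b, 2 of the 10, were higher in MKO/tdT by more than 1.5-fold (log2 0.58), against 13.3% of the 14478 ranked genes, and none was lower by as much, against 5.77%. The share of members past the limit is thus close to that of all genes. The median ratio was 0.16 over the members and 0.02 over the ranked genes, and without the Hspa1 pair the median of the other members was 0.07.

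**Figure D1:**
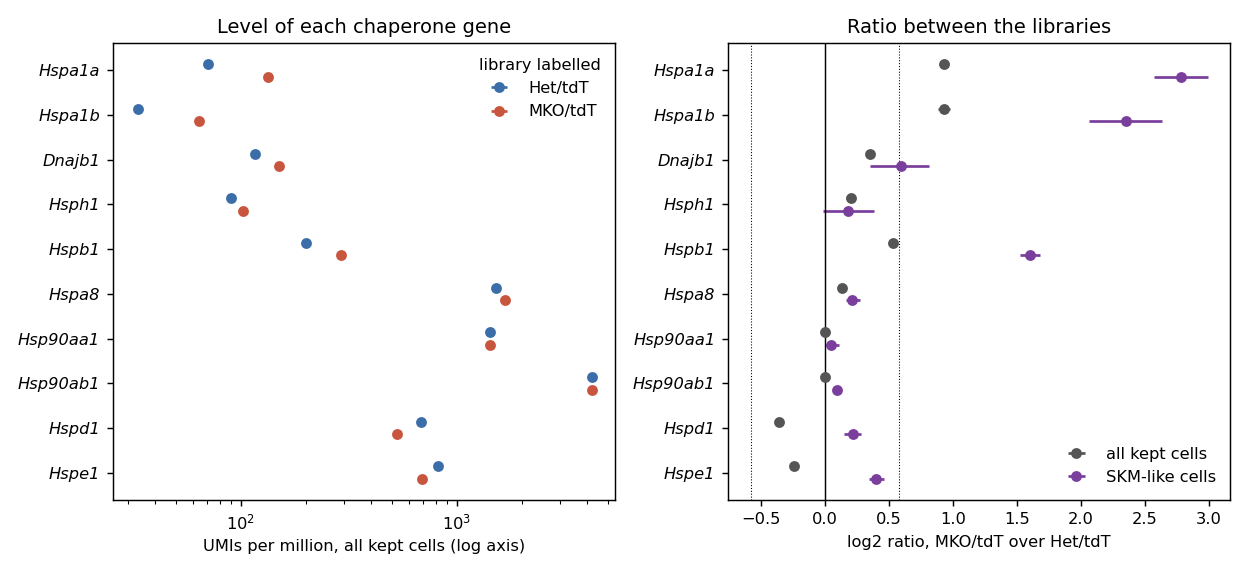
Left, level of each chaperone gene in CPM over all kept cells (log axis) in the libraries labelled Het/tdT and MKO/tdT, 1 library each. Right, log2 ratio of MKO/tdT over Het/tdT over all kept cells and in SKM-like cells. Bars are 95% counting intervals and dotted lines the 1.5-fold limit. Hspa1a, Hspa1b and Hspb1 lie farthest to the right in SKM-like cells, and Hspd1 and Hspe1 lie left of 0 over all cells and right of it in SKM-like cells.

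In SKM-like cells, the class the deletion is aimed at, the inducible genes differed more. Hspa1a was at 25.1 (23.2 to 27.0) CPM in the 1820 cells of Het/tdT and 172 (152 to 194) in the 94 cells of MKO/tdT. Hspa1b was at 17.2 (15.7 to 18.8) and 87.4 (73.2 to 104). The sum of both genes was 6.15-fold higher in MKO/tdT, a ratio of 2.62 (2.45 to 2.79), and rested on 398 UMIs there. Hspb1 followed, at 316 (309 to 322) and 955 (907 to 1005), which is 3.02-fold higher.

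Dnajb1 was at 74.6 in Het/tdT and 112 in MKO/tdT, and its ratio of 0.59 (0.35 to 0.81) lay at the 1.5-fold limit and ranged from 0.34 to 0.71 over the settings tried, so that its call ended in some. Hspe1, at 1229 and 1623, had a ratio of 0.40 (0.34 to 0.46), and Hspd1, at 1029.6 and 1196, one of 0.22 (0.15 to 0.28). In thinned cells these ratios were 0.47 and 0.11, the latter below its interval. The mitochondrial pair was thus higher in the SKM-like cells of MKO/tdT, the reverse of their order over all cells. Hspa8 had a ratio of 0.21 (0.16 to 0.27), Hsph1 of 0.18 (-0.02 to 0.38; 0.60 in thinned cells), Hsp90ab1 of 0.09 (0.06 to 0.12) and Hsp90aa1 of 0.05 (-0.00 to 0.11). In these cells 4 of the 10 members, Hspa1a, Hspa1b, Hspb1 and Dnajb1, were higher by more than 1.5-fold, against 2.81% of 8069 ranked genes, and none was lower by as much, against 9.22%. The median ratio was 0.31 over the members and -0.05 over the ranked genes. Together the 10 genes gave 1.21% of all UMIs of the SKM-like cells of Het/tdT and 1.43% of those of MKO/tdT, the largest share among the 11 classes in both libraries.

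The SKM-like cells were divided by the myogenic genes. Cells with a UMI of Pax7 or Myf5 and none of Myog were taken as progenitors, 600 in Het/tdT and 28 in MKO/tdT, and cells with at least 2 UMIs of Myog and none of Pax7 as differentiating, 762 and 49. In progenitors, Hspa1a and Hspa1b together were at 46.3 (42.0 to 50.9) and 152 (117 to 193) CPM. In differentiating cells they were at 41.2 (37.4 to 45.3) and 307 (269.5 to 349). The pair was higher in MKO/tdT in both states, with ratios of 1.71 (1.31 to 2.09) and 2.90 (2.67 to 3.13). Hspb1 was at 221 and 588 in progenitors and at 424 and 1194 in differentiating cells, so that the later state had the higher level in each library while its ratios, 1.41 and 1.49, were close. Hspd1 had the opposite order of states, at 1176 and 1417 in progenitors and 836 and 1046 in differentiating cells.

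A few cells carried most of the inducible HSP70 UMIs. Among the SKM-like cells of Het/tdT, the 182 highest held 82.7% of the pair's UMIs, and in MKO/tdT the 10 highest held 67.8%, with 83 UMIs in a single cell. The interval of the ratio does not take in this spread between cells. When the same share of cells, those highest in the pair for their depth, was left out of each library, the ratio was 3.48. Cells were left out here by the value compared, and a larger share of the cells of MKO/tdT held the pair. This step can thus raise the ratio by itself, and how far a few cells set the ratio was not tested. The ratio was above 1.5-fold in every setting tried, from 1.71 to 3.48. With each cell thinned to 2000 UMIs, so that depth could not set the share, 104 of 1814 SKM-like cells of Het/tdT, 5.73% (4.71 to 6.90), and 18 of 94 of MKO/tdT, 19.1% (11.8 to 28.6), had at least 1 UMI of the pair. Without thinning the shares were 21.0% and 52.1%. For Hspb1 the thinned shares were 36.2% and 66.0%.

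Markers of other classes were detected in the SKM-like cells of both libraries, far below their level in their own class. The Chon-like list was highest, at 85.3 CPM in Het/tdT against 75.0 in MKO/tdT, with 6 of 6 genes detected in each. The summed limit genes of the Mesen-like class were at 52.6 CPM in Het/tdT, with 6 of 6 detected, and 43.7 in MKO/tdT, with 5 of 6 detected and Osr1 at 0. Those of the Peri-like class were at 26.1 and 24.1, with 4 of 4 and 2 of 4 detected, and Abcc9 and Kcnj8 at 0 in MKO/tdT. Other lists were higher in MKO/tdT. The Immu-like list was at 2.01 and 16.3 and the Epi-like list at 3.46 and 8.48, with 5 of 5 detected in each library. The Neu-like list was also higher in MKO/tdT, at 21.5 CPM, with 4 of 5 detected there and Snap25 at 0. In Ery-like cells, taken as the class nearest to background, no thinned cell of 57 and of 63 had a UMI of the pair, which allows a share of up to 6.27% and 5.69%, at median depths of 10308 and 11666 UMIs. Without thinning, 1.75% and 4.76% of them had one. How far cells of other types or free RNA entered the SKM-like values was not tested.

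The inducible pair differed more between classes of cell than between the libraries. Hspa1a and Hspa1b together were highest in Sch-like cells of Het/tdT, at 780.3 (733 to 830.3) CPM, and in Peri-like cells of MKO/tdT, at 1059 (972 to 1152). In Het/tdT the order was Sch-like, Peri-like, Mesen-like, Endo-like, Immu-like, Epi-like, Osteo-like, SKM-like, Chon-like, Neu-like and Ery-like cells, and the intervals overlapped between Endo-like and Immu-like and between Immu-like and Epi-like cells. In MKO/tdT it was Peri-like, Sch-like, Endo-like, SKM-like, Osteo-like, Mesen-like, Epi-like, Chon-like, Immu-like, Neu-like and Ery-like cells, with overlaps between SKM-like and Osteo-like, Osteo-like and Mesen-like, and Mesen-like and Epi-like cells. Leaving out Ery-like cells, the highest class was 44.6-fold above the lowest in Het/tdT and 23.1-fold in MKO/tdT. SKM-like cells stood in the eighth place in Het/tdT and in the fourth in MKO/tdT. The intervals of these levels do not take in the spread between cells. In Het/tdT 16 of 153 Sch-like cells held 40.7% of the pair's UMIs, and in MKO/tdT 6 of 55 Peri-like cells held 42.5%. The thinned shares of cells with at least 1 UMI overlapped between Sch-like and Peri-like cells in both libraries. They were 52.3% (44.1 to 60.4) and 45.7% (33.7 to 58.1) in Het/tdT, and 46.8% (37.3 to 56.6) and 63.6% (49.6 to 76.2) in MKO/tdT.

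**Figure D2:**
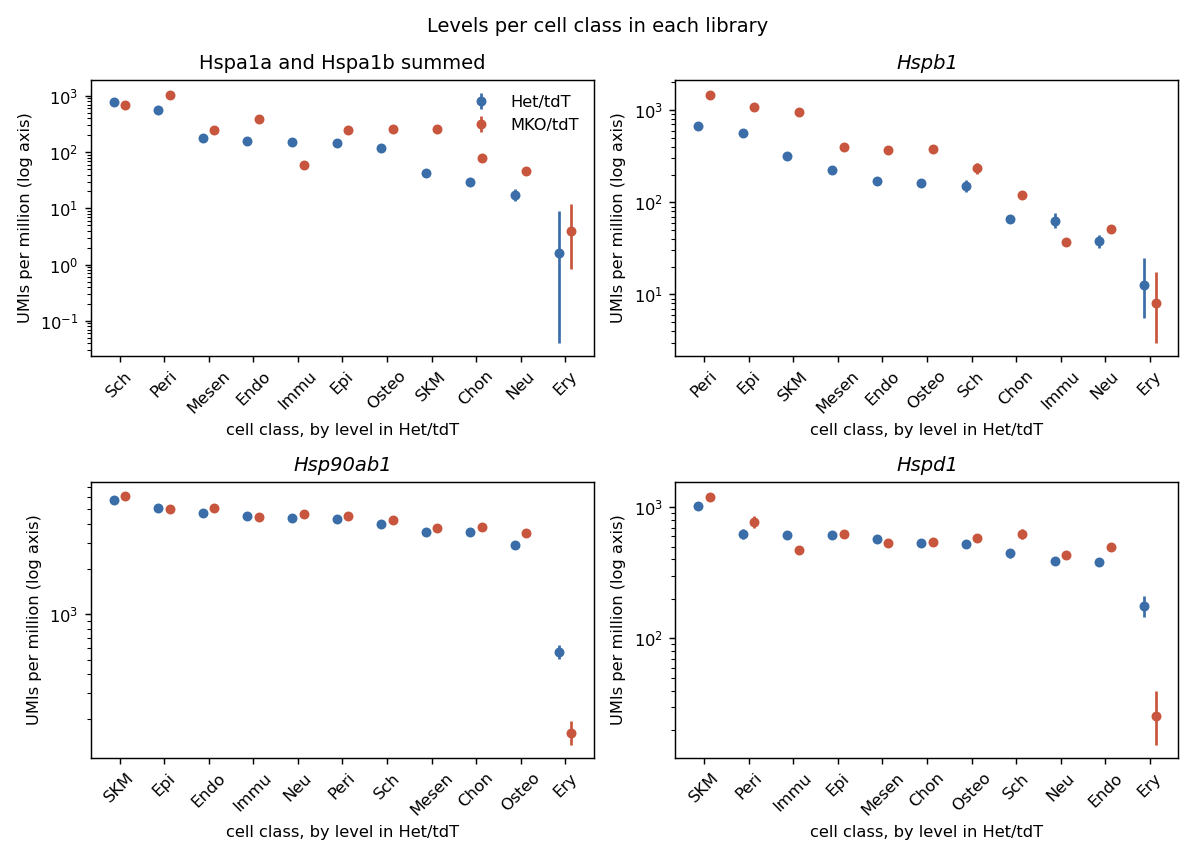
Levels in CPM (log axis) of Hspa1a and Hspa1b summed, Hspb1, Hsp90ab1 and Hspd1 in each cell class, with classes ordered by the level in Het/tdT, 1 library per colour. Points are sums over the cells of a class and bars 95% Poisson intervals. The pair runs from 780.3 in Sch-like cells to 1.59 in Ery-like cells of Het/tdT, while Hsp90ab1 differs little between the classes other than Ery-like cells.

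The pair was higher in MKO/tdT in 8 of the 10 classes in which a ratio could be given. In Chon-like cells it was at 29.0 (27.2 to 31.0) in Het/tdT, against 77.2 (74.0 to 80.5) in MKO/tdT, a ratio of 1.41. In Endo-like cells it was at 157 (147 to 168) and 394 (385 to 404), a ratio of 1.32. In Neu-like cells it was at 17.5 (13.8 to 21.8) and 45.8 (41.6 to 50.2), a ratio of 1.39. Higher levels in MKO/tdT were thus found outside muscle cells too. All cells were sorted as tdT-positive, and the study reports transient Myf5 activity in non-muscle lineages, so these classes are not taken as cells without Cre activity. Osteo-like, Peri-like and Epi-like cells had ratios of 1.14, 0.91 and 0.74. Mesen-like cells, the class with the most kept cells in Het/tdT, had a smaller one, 0.49 (0.44 to 0.54), with levels of 177 and 248.

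In Chon-like cells 3 of the 10 members, Hspa1a, Hspa1b and Hspb1, were higher by more than 1.5-fold, against 2.06% of 10178 ranked genes, and none was lower by as much, against 1.81%. The members' median there was 0.32, and that of the ranked genes -0.04. In Mesen-like cells Hspb1, at 226 (222 to 231) and 399 (391 to 407), was the 1 member of 10 past the limit, against 2.77% of 10924 ranked genes, and again none was lower, against 3.06%, with medians of 0.29 and -0.06.

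Sch-like and Immu-like cells went the other way. In Sch-like cells the pair was at 780.3 in Het/tdT and 685 in MKO/tdT, a ratio of -0.19 (-0.33 to -0.04). Taken singly, Hspa1b had a counting interval below 0 there and Hspa1a did not. The thinned shares of Sch-like cells with at least 1 UMI of the pair overlapped, at 52.3% (44.1 to 60.4) and 46.8% (37.3 to 56.6). In Immu-like cells it was at 150.4 (133 to 169) and 58.7 (53.8 to 63.9), a ratio of -1.36 (-1.57 to -1.14). The Immu-like class differed in its makeup. Cells with at least 3 UMIs of the mast cell protease genes Cma1 and Cpa3 were 35 of 122 in Het/tdT and 300 of 588 in MKO/tdT, and the rest with at least 3 UMIs of the complement genes C1qa, C1qb and C1qc, which macrophages express, were 53 and 77. This split was chosen after the levels were seen. In the C1q cells the pair was at 391 and 418, a ratio of 0.10 (-0.15 to 0.34), and in the mast gene cells at 69.5 and 19.8, a ratio of -1.81 (-2.29 to -1.31) on 55 and 107 UMIs.

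Hspb1 shared this pattern in part. It was highest in Peri-like cells, at 678 (622 to 737) in Het/tdT, against 1449 (1347 to 1557) in MKO/tdT, followed in both libraries by Epi-like cells, at 566 and 1086, and SKM-like cells. It was higher in MKO/tdT in 9 of 11 classes, with ratios from 0.45 in Neu-like cells to 1.60 in SKM-like cells. The exceptions were Immu-like cells, at 63.3 and 37.2, and Ery-like cells, at 12.7 and 8.08, where 8 and 6 UMIs were counted. Across all kept cells the ratio of 0.53 was smaller than the 0.69 outside the SKM-like class. SKM-like cells, in which Hspb1 is high, were 14.5% of the kept cells of Het/tdT and 0.909% of those of MKO/tdT. The part of this smaller share in the ratio was not tested.

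Dnajb1 and Hsph1, the partners of HSP70, had lower highest ratios by class than the pair, 0.59 and 0.87 against 2.62. Those of Dnajb1 were more even, with a lowest value of -0.24 in Ery-like cells, while those of Hsph1 reached -1.13 there. Dnajb1 was higher in MKO/tdT in 10 of 11 classes, from 0.11 in Immu-like to 0.59 in SKM-like cells, with counting intervals above 0 in 8. Its class order was the same in both libraries, from Peri-like cells (209.8 in Het/tdT and 281 in MKO/tdT) and Sch-like cells (175 and 233) down to Ery-like cells. However, 8 of the 10 pairs of neighbours in that order overlapped in Het/tdT and 6 in MKO/tdT. Hsph1 had its highest ratio in Endo-like cells, at 92.9 (85.2 to 101) and 169 (163 to 176), a ratio of 0.87, and in Peri-like cells, with 0.82. In Immu-like cells it was at 69.7 and 33.2, a ratio of -1.07 (-1.37 to -0.76). It was highest in SKM-like cells of Het/tdT, at 128, which is 1.35-fold above Mesen-like cells, and these intervals did not overlap. Of the 10 pairs of neighbours in its class order there, 8 overlapped. In MKO/tdT it was highest in Endo-like cells, followed by Peri-like and SKM-like cells, with overlaps between these neighbours.

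**Figure D3:**
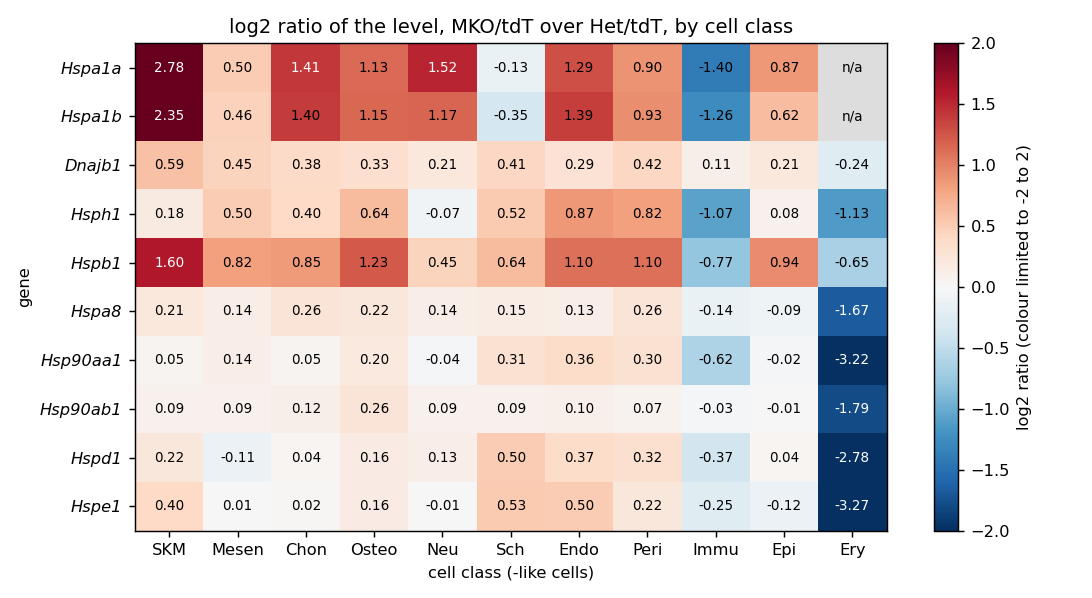
log2 ratio of MKO/tdT over Het/tdT for each chaperone gene (rows) in each cell class (columns), from UMIs summed over the cells of the class in 1 library each, with the value in each cell of the grid. The grey cells have no ratio because at most 3 UMIs were counted. Red cells (higher in MKO/tdT) fill the rows of Hspa1a, Hspa1b and Hspb1 outside the Immu-like, Sch-like and Ery-like columns, and the rows of Hsp90ab1 and Hspa8 stay near 0 outside Ery-like cells.

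Outside Ery-like cells, Hspa8 and Hsp90ab1 varied little between classes or libraries. Hspa8 was highest in Endo-like cells, at 2219 and 2428, and outside Ery-like cells its highest class was 1.99-fold above its lowest in Het/tdT and 1.82-fold in MKO/tdT. Its highest class in MKO/tdT was 1.05-fold above Peri-like cells, with overlapping intervals. Outside Ery-like cells its ratios lay between -0.14 in Immu-like and 0.26 in Chon-like and Peri-like cells. Hsp90ab1 was highest in SKM-like cells, at 5774 (5745 to 5802) and 6147 (6023 to 6272), and its ratios lay between -0.03 and 0.26 outside Ery-like cells. Hsp90aa1 varied more between the libraries and was highest in Neu-like cells, at 1947 and 1892. Its highest class in MKO/tdT was 1.01-fold above Endo-like cells, with overlapping intervals. Outside Ery-like cells it differed most in Immu-like cells, at 1468 and 956, a ratio of -0.62, followed by Endo-like cells, at 1460.1 and 1877, with 0.36.

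Ery-like cells held little of any member, and their lower values in MKO/tdT rested on few cells. Hsp90aa1 was at 427 in Het/tdT and 45.8 in MKO/tdT, Hspe1 at 221 and 22.9, and Hspd1 at 176 and 25.6. In Het/tdT, 6 of 57 Ery-like cells held 88.8% of the Hsp90aa1 UMIs and 94.6% of those of Hspd1, and a single cell held 213 UMIs of Hsp90aa1. Together the 10 genes gave 0.168% of the UMIs of Ery-like cells of Het/tdT and 0.0369% of those of MKO/tdT.

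The mitochondrial pair was highest in the muscle cells. Hspd1 was highest in SKM-like cells, at 1029.6 in Het/tdT and 1196 in MKO/tdT, which is 1.66-fold and 1.54-fold above the next class, Peri-like cells. Hspe1 was also highest there, 1.28-fold above Epi-like cells in Het/tdT and 1.53-fold above Sch-like cells in MKO/tdT. Within classes, Hspd1 was higher in MKO/tdT in 8 of 11 and Hspe1 in 7 of 11. The counting intervals lay above 0 in 6 classes for Hspd1 and 5 for Hspe1, and below 0 in 3 for each. In Mesen-like cells Hspd1 was at 573 and 530.4, a ratio of -0.11, and Hspe1 at 697 and 701, a ratio of 0.01. The levels differed most upward in Sch-like cells, with ratios of 0.50 for Hspd1 and 0.53 for Hspe1.

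With the same mix of classes set in both libraries, the mean of their shares, the ratio of Hspd1 changed from -0.36 to 0.04 and that of Hspe1 from -0.24 to 0.12. Outside the SKM-like class alone the ratios were -0.21 and -0.09. Both ratios were thus nearer to level without SKM-like cells but still negative. The part of the smaller share of SKM-like cells in them was not tested. Lower levels were also seen in the cells left in no single class, where Hspd1 was at 814 and 533 in mixed cells and at 765 and 525 in unassigned ones. The same standard mix left the sum of Hspa1a and Hspa1b at 0.78 and moved Hspb1 from 0.53 to 1.03, past the 1.5-fold limit, so that 3 members were past it.

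Across all kept cells, each thinned to 2000 UMIs, 11.8% (11.3 to 12.4) of the cells of Het/tdT and 17.4% (16.6 to 18.1) of those of MKO/tdT had at least 1 UMI of Hspa1a or Hspa1b. At least 3 UMIs were found in 2.63% (2.35 to 2.93) and 5.16% (4.72 to 5.62), and at least 5 in 0.957% (0.790 to 1.15) and 2.25% (1.96 to 2.57). The shares before thinning were 27.1% and 34.1%, and 609 and 750 cells were too shallow to be thinned. More cells of MKO/tdT carried the pair, at each limit. By class the share with at least 1 UMI ranged from 0% in Ery-like cells to 52.3% in Sch-like cells of Het/tdT and 63.6% in Peri-like cells of MKO/tdT. In Endo-like cells it was 19.9% (15.9 to 24.4) and 38.1% (34.9 to 41.4), and in Chon-like cells 4.27% (3.47 to 5.19) and 8.90% (7.76 to 10.2).

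**Figure D4:**
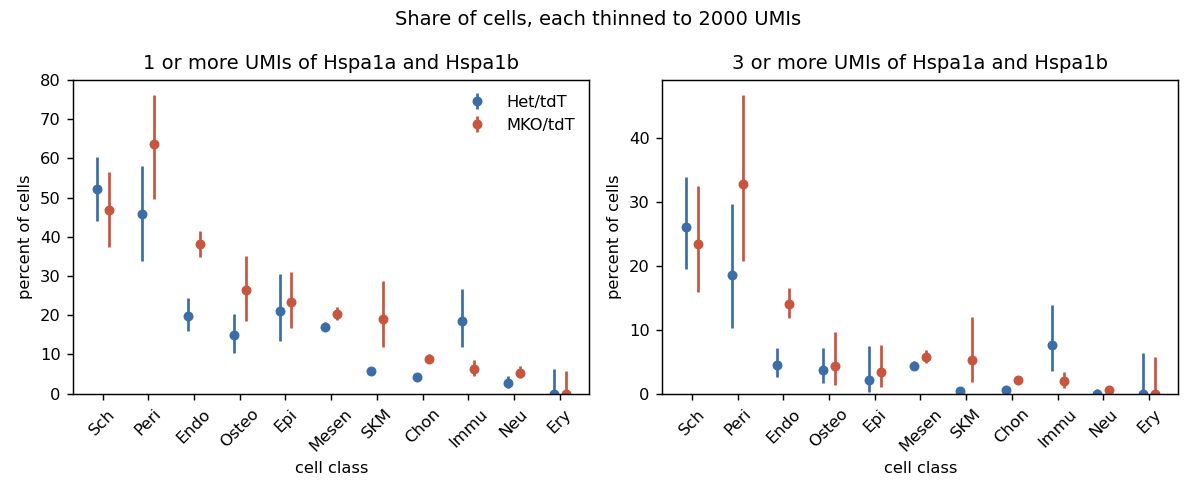
Percent of cells with at least 1 UMI (left) and at least 3 UMIs (right) of Hspa1a and Hspa1b in each cell class, in cells thinned to 2000 UMIs, 1 library per colour, with 95% Clopper-Pearson intervals. The share with at least 1 UMI is 5.73% and 19.1% in SKM-like cells and 18.5% and 6.22% in Immu-like cells of Het/tdT and MKO/tdT.

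In Mesen-like cells the other chaperones were higher in the cells that carried the inducible pair. Of these, 166 thinned cells of Het/tdT and 136 of MKO/tdT had at least 3 UMIs of Hspa1a and Hspa1b, and 3155 and 1879 had 0. Hspb1 was at 169 CPM in the cells with 0, 409 in those with 1 to 2 and 749 in those with 3 or more in Het/tdT, and at 274, 735 and 1168 in MKO/tdT. The level of Hspb1 rose with that of the pair in each library, and the ratio between the outer groups was 2.14 (1.94 to 2.34) and 2.09 (1.90 to 2.27). For Hsph1 that ratio was 1.77 and 1.76, for Dnajb1 1.44 and 1.62, and for Hsp90aa1 1.21 and 1.27. The 2 HSP90 genes parted here, since the ratio for Hsp90ab1 was 0.24 (0.16 to 0.32) and 0.35 (0.27 to 0.43).

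Hspe1 had ratios of 0.73 and 1.08 between these groups of cells, Hspd1 of 0.73 and 1.02, and Hspa8 of 0.48 and 0.69. Actb, a cytoskeletal gene set beside them, had 0.02 (-0.07 to 0.11) in the library Het/tdT, against -0.22 (-0.33 to -0.12) in the other. The 20 immediate early genes, which respond to growth factors and to tissue dissociation, had 0.48 (0.45 to 0.52) and 0.45 (0.41 to 0.48), so that in Mesen-like cells 7 of the 8 other members differed as much or more in both libraries and Hsp90ab1 less. Elsewhere this order did not hold. Over all kept cells of Het/tdT the list had 1.03, above Hspa8 (0.49), Hspe1 (0.42) and Hspd1 (0.38). In SKM-like cells only 7 and 5 thinned cells had 3 or more UMIs, and Hspb1 had ratios of 2.01 (1.20 to 2.72) and 2.40 (1.86 to 2.92). There the list had 1.59 and 1.38, while Hsph1 had -0.71 (-6.02 to 1.77) in Het/tdT and Hspd1 -0.40 (-1.63 to 0.62) in MKO/tdT. In Chon-like cells of Het/tdT the mitochondrial pair was not higher in cells with 1 to 2 UMIs than in those with 0. Hspe1 was at 598 against 624 CPM and Hspd1 at 458 against 469.8, with overlapping intervals, while the other members were higher. In Chon-like cells of MKO/tdT both were higher, Hspe1 at 819.8 against 639 and Hspd1 at 604 against 494. Across single Mesen-like cells, Pearson's r on log2 thinned UMIs was 0.46 in 3806 cells of Het/tdT and 0.41 in 2362 cells of MKO/tdT between Hspa1a and Hspa1b, and at most 0.31 between the pair and any other member. The cells of a library share its handling and these counts are sparse, so the values are a description.

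**Figure D5:**
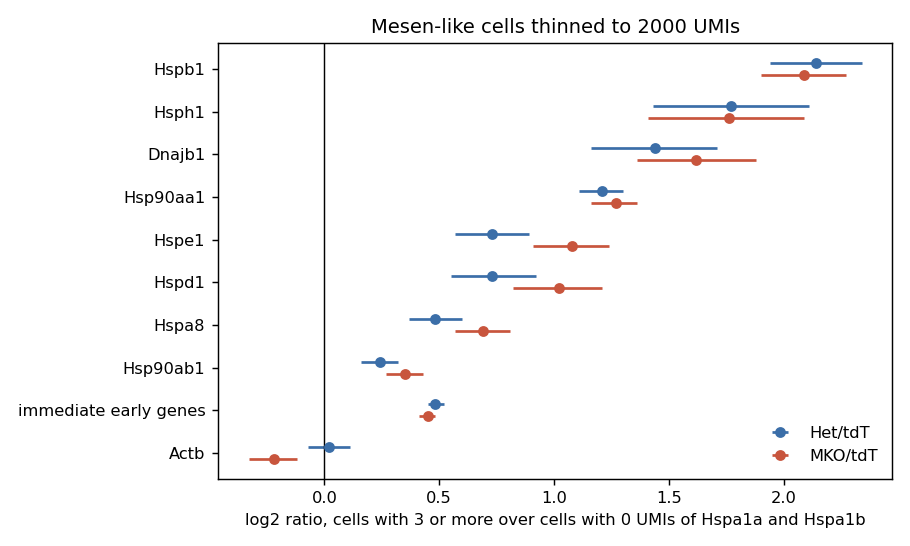
log2 ratio of the level in Mesen-like cells with 3 or more UMIs of Hspa1a and Hspa1b over cells with 0, all thinned to 2000 UMIs, for the other 8 chaperone genes, the summed immediate early genes and Actb, with 95% counting intervals and 1 library per colour. Hspb1, Hsph1, Dnajb1 and Hsp90aa1 lie between 1.21 and 2.14, and Hsp90ab1 and Actb lie lowest.

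Over the 22 sums of a class in a library, Hspa1a and Hspa1b had a Pearson's r of 0.95 on the log2(level + 1) scale, and Hspd1 and Hspe1 one of 0.98. Without the low Ery-like sums, which leaves 20, these were 0.97 and 0.88. Over those 20 sums the pair's genes went with Dnajb1 (0.77 for Hspa1a and 0.80 for Hspa1b) and with Hspb1 (0.65 and 0.75), and hardly with Hsp90ab1 (-0.01 and 0.11). Among 10952 genes with at least 1000 UMIs, the non-members most like the pair were Ppp1r15a, which turns off the integrated stress response (0.910 over 22 sums and 0.802 over 20), the J-domain gene Dnajb4 (0.908 and 0.836), Gm8251 (0.904 and 0.789), the laminin gene Lamc1 (0.903 and 0.805) and Arid5b (0.899 and 0.791). For Hspd1 they were Pus7, Naa50, Nop16, Pmpcb and Ccdc58, with 0.975 to 0.970 over 22 sums and 0.770 to 0.855 over 20. The sums share 2 libraries, so these values describe and test nothing.

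The immediate early genes moved with the inducible chaperones in most classes. Their sum was at 10086 CPM in Het/tdT and 13171 in MKO/tdT over all kept cells, a ratio of 0.39, and at 2524 and 3764 in SKM-like cells, a ratio of 0.58 (0.54 to 0.62). In Immu-like cells, where the pair was lower in MKO/tdT, the list was lower too, with a ratio of -0.44. In Endo-like cells it was not, since the pair had a ratio of 1.32 and the list -0.11 (-0.12 to -0.10), and in Sch-like cells the pair had -0.19 and the list 0.33. Over all kept cells 3 of 20 genes of the list (Ier3, Atf3 and Dusp1) were higher past 1.5-fold, against 13.3% of all ranked genes, and none lower, against 5.77%, with a median of 0.33, from Ier3 (0.89) and Atf3 (0.76) to Egr1 (0.05) and Nr4a1 (-0.10). In SKM-like cells 7 of 18 ranked genes of the list were higher past the limit, against 2.81% of all ranked genes, among them Fos, at 176 and 374, and Jun, at 454 and 963. The part of tissue handling in the levels of the chaperones was not tested, and with 1 library per genotype handling and genotype cannot be told apart.

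The rest of the chaperone network was read from fixed lists, against 13.3% of ranked genes higher past 1.5-fold over all kept cells and 5.77% lower. Of the HSF1 axis, 0 of 5 ranked genes were past 1.5-fold over all kept cells, with a median of -0.02, and Hsf1 itself was at 24.6 and 21.4. Its highest ratios were those of Hsbp1 (0.08) and Hikeshi (-0.01) and its lowest those of Hsf1 (-0.20) and Hspbp1 (-0.05). Among other HSP70 and HSP110 genes, 1 of 7 was higher past the limit, Hspa12a (0.60), followed by Hspa2 (0.57), and none lower, with Hspa14 (-0.14) and Hspa4 (-0.02) lowest and a median of 0.14. Among other J-domain genes, 1 of 16 was higher, Dnaja4 (0.66, on levels of 4.12 and 6.51), followed by Dnaja1 (0.37), and none lower, with Dnaja3 (-0.44) and Dnajc8 (-0.25) lowest and a median of 0.05.

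HSP70 and HSP90 cochaperones had 0 of 17 higher and 1 lower, Unc45b (-0.59), the myosin chaperone that works with HSP90 in muscle, then Fkbp4 (-0.43), while Bag3 (0.21) and Chordc1 (0.11) were highest and the median was -0.17. Within SKM-like cells the 2 lowest were nearly level, Unc45b with -0.06 (-0.86 to 0.64) and Fkbp4 with -0.01 (-0.18 to 0.16). Of TRiC and prefoldin subunits 0 of 13 were past the limit in either direction, with Pfdn5 (0.12) and Pfdn4 (0.06) highest, Tcp1 (-0.33) and Cct6a (-0.32) lowest and a median of -0.17. Of 13 endoplasmic reticulum chaperones none was past it, with Dnajb9 (0.55) and Sdf2l1 (0.24) highest, Manf (-0.21) and Calr (-0.19) lowest and a median of 0.00. Nor was any of 6 other mitochondrial chaperones and proteases, with Grpel1 (0.00) and Grpel2 (-0.05) highest, Trap1 (-0.39) and Lonp1 (-0.15) lowest and a median of -0.13. Of 8 genes of the integrated stress response, 1 was higher, Ppp1r15a (0.62, at 195 and 301), followed by Asns (0.55), and none lower, with Chac1 (-0.10) and Sesn2 (0.06) lowest and a median of 0.31.

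The other small heat shock proteins, relatives of Hspb1, parted from it over all cells. Of 5 ranked genes 3 were lower past 1.5-fold, Hspb2 (-2.28), Hspb3 (-2.22) and Cryab (-1.25), with Hspb8 (0.42) and Hspb6 (-0.09) highest and a median of -1.25. Within SKM-like cells these 3 were higher in MKO/tdT. Cryab was at 196 and 279 there (ratio 0.51, 0.36 to 0.65), Hspb2 at 48.6 and 72.4 (0.58, 0.28 to 0.86) and Hspb3 at 8.82 and 15.7 (0.83, 0.16 to 1.43). SKM-like cells held 5381 of the 9366 Cryab UMIs of Het/tdT and 428 of the 3191 of MKO/tdT. The part of the smaller share of SKM-like cells in the lower levels over all cells was not tested. Hspb1 was higher in MKO/tdT both over all cells and within SKM-like cells, where its ratio of 1.60 exceeded theirs.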

How the data were processed

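The files hold 1 matrix of raw UMI counts for both libraries, deposited by the authors, who made it with Cell Ranger (5.0.0 in the file header, 3.1.0 in the submitters' processing notes, which also list STAR and Seurat 3.1.1) on mm10, with introns not counted and with reads down-sampled when the libraries were aggregated, after which their UMIs still differed. The deposited depth was 156093779 UMIs for Het/tdT, against 128116615 for MKO/tdT. Cells were kept at up to 10% mitochondrial UMIs and within 2 SD of the mean log10 UMIs and genes of their library. No doublet caller was run, but cells passing the limits of several classes without a 3-fold lead were set aside as mixed (11.8% and 11.3% of kept cells). A class needed at least 3 UMIs from at least 2 of its limit genes.

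UMIs were summed per library and class (Python 3.11.15, NumPy 2.4.6, SciPy 1.17.1). With 1 library per genotype no test was run. Levels have exact Poisson intervals, ratios exact binomial ones and shares Clopper-Pearson ones, at 95%, and a count of 0 allows 3 counts. Genes were ranked from 200 UMIs and called past 1.5-fold, the limit of the study's methods. Intervals, ratios and thinning were tested on simulated counts. Genes named are the 10 members everywhere, the 2 highest and 2 lowest of each list over all cells, the 5 genes most like the Hspa1 pair and Hspd1, and Srsf2. Further list genes in SKM-like cells were chosen after their values were seen. The members and lists were chosen with earlier results of these data known. Gene positions are from GENCODE vM21 (GRCm38). Alternatives changed the filters, the denominator, the class limits, the class mix and the fold limit, and thinned each cell to 2000 UMIs. The marker sum of the Sch-like class in SKM-like cells is not reported here.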

Additional observations from a re-analysis of the deposited data

Results flagged for a closer look

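In 3 cases a chaperone was higher in MKO/tdT by more than 1.5-fold in a class and lower by as much in Immu-like cells, with counting intervals on either side of 0. Hspa1a and Hspa1b together had a ratio of 2.62 in SKM-like cells and -1.36 in Immu-like cells. Hspb1 had 1.60 in SKM-like and -0.77 in Immu-like cells, and Hsph1 had 0.87 in Endo-like and -1.07 in Immu-like cells. With 1 library per genotype these differences between classes were not tested. The Immu-like class held more mast gene cells in MKO/tdT (300 of 588, against 35 of 122). In its C1q cells Hspb1 had a ratio of 0.31 (-0.06 to 0.69) and Hsph1 of -0.14 (-0.72 to 0.45), while in its mast gene cells Hsph1, on 60 and 147 UMIs, had -1.48 (-1.92 to -1.02).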

How the results depend on the processing

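Over all kept cells, the ratio of Hspa1a and Hspa1b together, 0.93, moved beyond its interval to 0.88 with limits on the linear scale, 0.80 with thinned cells and 0.78 with the same class mix. In SKM-like cells its 2.62 moved to 2.30 when mixed cells that passed the muscle limits were added, to 1.71 and 2.90 in progenitors and differentiating cells alone, and to 3.48 without the tenth of cells highest in the pair, all chosen after seeing the data. It stayed within its interval under the other settings. The count of members past the limit was 2, with 0 past 2-fold. No single member past the limit turned its direction, and of the alternative values of single members 36 of 70 over all cells and 97 of 120 in SKM-like cells stayed within their counting intervals. The lower Hspd1 and Hspe1 over all cells turned to 0.04 and 0.12 with the same class mix, which sets all class shares equal and leaves out mixed and unassigned cells. Named classes alone gave -0.30 and -0.20, so leaving out mixed and unassigned cells did not turn them by itself. Leaving out SKM-like cells gave -0.21 and -0.09. Which class shares turned them was not tested. No paired analysis was possible because each genotype has 1 library, and no library could be left out for the same reason. The 94 SKM-like cells of MKO/tdT limit the precision of every value in that class.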

Other observations

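Barcodes above the mitochondrial limit, 1106 in Het/tdT and 968 in MKO/tdT, belong to no comparison above. In them Hspa1a and Hspa1b together were at 58.8 (50.1 to 68.5) CPM for Het/tdT and 115 (100.2 to 130.3) for MKO/tdT, against 104 and 198 in the kept cells. The pair's level was thus lower in these barcodes in both libraries. They were given no cell class, and their mitochondrial UMIs are part of the total. Dnajb1 was at 54.9 and 61.2 there, against 117 and 149.8 in kept cells, and Hspd1 at 593 and 465, against 679 and 527. Not every member was lower by as much. Hsp90aa1 was nearly level, at 1408 and 1398, against 1416 and 1417. Hsph1 was at 86.9 and 71.7, against 90.2 and 103.

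Cells that passed no class limit, 1486 in Het/tdT and 1349 in MKO/tdT, were the shallowest, at medians of 4938 and 3702 UMIs. The pair was at 67.8 in those of Het/tdT and 208 in those of MKO/tdT, a ratio of 1.62 (1.47 to 1.77), and Hspb1 at 194 and 379. In mixed cells the pair was at 103 and 229.8, a ratio of 1.15 (1.08 to 1.23).

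In Epi-like cells Hspa1a gave 47.6% (40.9 to 54.3) of the pair's UMIs of Het/tdT and 51.9% (48.5 to 55.3) of those of MKO/tdT, against 75.4% (71.2 to 79.3) and 74.9% (71.1 to 78.5) in Peri-like cells. The split between the 2 inducible genes, whose promoter windows differ at 4 of 300 bases, thus differed between these classes in each library by more than counting error. The spread between cells is not in these intervals. Of the pair's UMIs in Epi-like cells, 10 of 95 cells held 58.6% in Het/tdT and 16 of 151 held 65.0% in MKO/tdT.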
